A study of Mus musculus with 14 samples.

Results

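The genes described here are 9 members of the MHC class I antigen processing pathway and the immunoproteasome. They were measured in thymic lymphomas that arose in 14 mice. The members were chosen by name, as Tap1, Tap2, Tapbp, B2m, H2-K1, H2-D1, Psmb8, Psmb9 and Psmb10, through the probe sets that name only these genes. They are 9 of the 10254 genes measured, and 17 probe sets represent them. Every animal was homozygous for mutant p53 R270H. The strain was mixed, C57BL/6-129/SvEvTac. The animals differed in Hif1a, the oxygen-regulated subunit of a transcription factor. The groups were Hif1a+/+ (n = 5), Hif1a+/- (n = 5) and Hif1aKI/+ (n = 4). The labels do not say what the KI allele carries. Animals were kept until respiratory distress appeared, so tumours were collected at end stage and ages are not given. Tumours are named by genotype and by the biological replicate number of the labels, and the Hif1aKI/+ tumours are numbered 1, 3, 4 and 5. The study asked which expression differences accompany altered tumour onset and incidence across the Hif1a genotypes.

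MHC class I molecules show short peptides from inside the cell to CD8 T cells. Each consists of a heavy chain, here H2-K1 or H2-D1, bound to the light chain B2m. Proteasomes cut proteins into peptides, the TAP transporter made of Tap1 and Tap2 carries the peptides into the endoplasmic reticulum, and tapasin, encoded by Tapbp, bridges the transporter to empty class I molecules. Psmb8, Psmb9 and Psmb10 are the catalytic subunits of the immunoproteasome and take the places of Psmb5, Psmb6 and Psmb7 in newly built particles. Interferons induce most of these genes, and immature thymocytes carry less class I on their surface than mature T cells.

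The sequences before the start sites of H2-K1, H2-D1, B2m, Psmb9 and Tap1 are shown because these genes formed the closest pairs in the arrays. The RefSeq promoter table (GRCm38.p6) held entries for 8 of the 9 members, all but Tap2. The window was the 250 bases before the most upstream listed start. Capitals mark matches, on either strand, to GAANNGAAA, to GGGATTCCC, or to GAAA followed by any 2 bases and GAAA. The first 2 lines are the heavy chain windows, H2-K1 at chr17:34000348-34000597 on the minus strand and H2-D1 at chr17:35262844-35263093 on the plus strand. The third is B2m at chr2:122147437-122147686 on the plus strand. The last is the 225 bases between the start sites of Psmb9 and Tap1, which are transcribed away from each other, at chr17:34187331-34187555 on the strand of Tap1.
H2-K1: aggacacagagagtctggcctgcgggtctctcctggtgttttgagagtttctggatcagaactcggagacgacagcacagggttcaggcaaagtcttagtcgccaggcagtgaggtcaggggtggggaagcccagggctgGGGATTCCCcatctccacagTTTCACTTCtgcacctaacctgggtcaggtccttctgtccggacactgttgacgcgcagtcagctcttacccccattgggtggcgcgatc
H2-D1: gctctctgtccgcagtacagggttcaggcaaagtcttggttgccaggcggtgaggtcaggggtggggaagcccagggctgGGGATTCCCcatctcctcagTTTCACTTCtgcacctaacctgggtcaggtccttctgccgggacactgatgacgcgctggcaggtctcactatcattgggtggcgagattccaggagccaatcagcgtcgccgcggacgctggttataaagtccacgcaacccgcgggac
B2m: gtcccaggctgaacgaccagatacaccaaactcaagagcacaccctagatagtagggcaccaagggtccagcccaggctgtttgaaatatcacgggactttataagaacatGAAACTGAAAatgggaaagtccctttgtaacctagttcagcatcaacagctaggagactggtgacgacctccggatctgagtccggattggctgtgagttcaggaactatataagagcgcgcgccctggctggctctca
Psmb9 to Tap1: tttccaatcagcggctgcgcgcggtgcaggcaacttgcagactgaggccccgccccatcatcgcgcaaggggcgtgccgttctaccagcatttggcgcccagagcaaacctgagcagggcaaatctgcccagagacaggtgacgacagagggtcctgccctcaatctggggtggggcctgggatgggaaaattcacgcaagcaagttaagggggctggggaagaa

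The heavy chain windows shared a run of 47 identical bases, and 166 of the 190 bases that could be set side by side without gaps were identical (87.4%). Both held GGGATTCCC, a form of the kappaB site, beginning 110 bases before the H2-K1 start and 170 bases before the H2-D1 start. Of all 32851 RefSeq windows of this length, 0.301% held it. Both also held GAANNGAAA, a short form of the interferon consensus, 90 and 150 bases before the start, against 6.31% of windows. B2m held the interferon-stimulated response element (GAAA, any 2 bases, GAAA) 139 bases before its start, against 2.98% of windows. A match to the gamma-activated site TTCNNNGAA stood 97 bases before the Psmb8 start, against 7.02% of windows. The searched letters were absent from the windows of Tap1, Tapbp, Psmb9 and Psmb10, which says nothing more than that. GAANNGAAA and GGGATTCCC were added after these sequences had been seen, so their matches in the heavy chain windows are a description. The kappaB form searched first, GGGA, any 1 base and TTCCC, was in 0.32% of windows and in none of the 8 member windows. Matches to GAANNGAAA and to the longer element can overlap in part.

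Hif1a itself, the altered gene, was measured at 12.68 ± 0.26 (log2, SD, n = 5) in Hif1a+/+ tumours, 12.55 ± 0.22 (n = 5) in Hif1a+/- and 12.02 ± 0.22 (n = 4) in Hif1aKI/+. The Hif1aKI/+ mean was 0.66 lower than that of Hif1a+/+ (two-sided exact permutation p = 0.00794, the smallest that 126 assignments allow, 0.0238 adjusted over 3 comparisons). It was 0.53 lower than that of Hif1a+/- (exact p = 0.0238, adjusted 0.0357). The Hif1a+/- mean differed from Hif1a+/+ by -0.13 (exact p = 0.452), so the probe set did not separate the heterozygous tumours from wild type. Whether it lies inside the altered part of either allele is not given. Array medians lay between 7.91 and 8.03 on the log2 scale, and arrays correlated with each other at r between 0.942 and 0.976. All 15 measured T lineage markers were above the background boundary on average, and their mean level ran from 11.37 to 12.38 across tumours. The mean of 12 thymic epithelial markers ran from 3.48 to 6.60 in Hif1a+/+ tumours, 5.18 to 6.95 in Hif1a+/- and 5.98 to 7.33 in Hif1aKI/+. The part of these other cells in any result below was not tested. The labels call the samples biological replicates and say nothing of litters.

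All 9 members were well above the background boundary of 4.85 (log2 signal, the low point between the weak and the strong genes, below which 30.1% of genes lay) in every tumour. Values are deposited log2 signals, and levels are not compared between genes, because each probe set has its own response. The members differed in how far they spread. Psmb9 ranged over 3.06 log2 units across the 14 tumours (8.36-fold), Tap2 over 2.43 (5.40-fold) and H2-K1 over 1.68 (3.21-fold). B2m ranged over 0.37 (1.29-fold), and 1.19% of genes above the boundary had a smaller spread within genotypes. The corresponding share was 81.7% for Psmb9, 72.4% for Tap2, 64.4% for H2-K1 and 16.2% for Psmb8. In whole tumour pieces, fewer cells of a type and less RNA per cell cannot be told apart.

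The heavy chains present peptide. H2-K1 read 12.11, 12.24, 10.96, 10.87 and 12.03 in Hif1a+/+ tumours 1 to 5, 11.85, 12.48, 11.77, 12.22 and 11.13 in Hif1a+/- tumours 1 to 5, and 12.30, 12.18, 12.55 and 11.41 in Hif1aKI/+ tumours 1, 3, 4 and 5. The low tumours were Hif1a+/+ 3 and 4, Hif1a+/- 5 and Hif1aKI/+ 5, so each genotype held at least 1, and the groups overlapped. H2-D1 read 12.28, 12.43, 11.09, 11.06 and 12.07 in Hif1a+/+ tumours, 12.07, 12.63, 11.91, 12.34 and 11.27 in Hif1a+/-, and 12.34, 12.24, 12.56 and 11.41 in Hif1aKI/+. The same 4 tumours were low for H2-D1. The probe sets standing for both genes carry the _x_at suffix, which marks probes that also match other transcripts, as do 7 of the 17 member probe sets. Signals of near-identical class I genes can therefore mix, and the agreement of H2-K1 with H2-D1 cannot be told apart from shared probe matches. The single H2-D1 probe set without this suffix read 8.60, 7.17, 6.86, 6.96 and 7.37 in Hif1a+/+ tumours, 8.85, 9.92, 7.50, 8.85 and 7.48 in Hif1a+/-, and 8.45, 8.43, 9.90 and 6.09 in Hif1aKI/+. It spread over 3.83 log2 units, more than any probe set that stands for a member.

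The light chain B2m stabilises the heavy chains and is needed for normal class I levels at the surface. B2m read 14.25, 14.34, 14.16, 14.07 and 14.27 in Hif1a+/+ tumours, 14.15, 14.24, 14.15, 14.23 and 13.97 in Hif1a+/-, and 14.32, 14.14, 14.27 and 14.10 in Hif1aKI/+. Its lowest value was in Hif1a+/- tumour 5 and its highest in Hif1a+/+ tumour 2, and the groups overlapped. A second B2m probe set read 13.73 ± 0.15 (SD, n = 5), 13.72 ± 0.15 (n = 5) and 13.76 ± 0.17 (n = 4) in the same order.

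The transporter subunits carry peptides. Tap1 read 10.20, 9.08, 10.06, 10.41 and 10.18 in Hif1a+/+ tumours, 10.53, 10.38, 9.24, 10.53 and 10.27 in Hif1a+/-, and 10.40, 10.38, 10.68 and 10.29 in Hif1aKI/+. Hif1a+/+ tumour 2 and Hif1a+/- tumour 3 stood below all others, and the others lay between 10.06 and 10.68. Tap2 read 9.36, 8.97, 9.98, 10.07 and 10.77 in Hif1a+/+ tumours, 11.01, 10.64, 9.48, 9.59 and 11.40 in Hif1a+/-, and 10.36, 10.41, 10.02 and 10.35 in Hif1aKI/+. The Hif1aKI/+ tumours lay inside the range of both other groups. Tapbp, the bridging chaperone, read 12.95, 13.24, 12.88, 12.50 and 12.49 in Hif1a+/+ tumours, 13.10, 13.03, 12.61, 13.19 and 12.84 in Hif1a+/-, and 13.30, 12.68, 13.46 and 12.41 in Hif1aKI/+. High and low Tapbp tumours were found in every genotype. A second Tapbp probe set stayed between 2.02 and 2.05, below the boundary, and gave no level; it was 1 of the 17 member probe sets, and the other 16 were above it.

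The immunoproteasome subunits cut the peptides. Psmb8 read 13.08, 12.38, 13.05, 12.91 and 12.91 in Hif1a+/+ tumours, 13.03, 13.38, 12.73, 13.33 and 13.05 in Hif1a+/-, and 13.38, 12.89, 12.84 and 13.02 in Hif1aKI/+. Psmb9 read 11.14, 8.31, 10.25, 10.25 and 10.56 in Hif1a+/+ tumours, 10.18, 11.38, 9.06, 11.08 and 10.22 in Hif1a+/-, and 10.60, 10.58, 10.92 and 10.79 in Hif1aKI/+. The lowest tumours for both were Hif1a+/+ 2 and Hif1a+/- 3, the tumours that were also lowest for Tap1. Psmb10 read 11.42, 10.40, 11.00, 10.87 and 10.54 in Hif1a+/+ tumours, 11.39, 11.77, 10.83, 11.52 and 10.78 in Hif1a+/-, and 11.30, 10.57, 11.42 and 10.62 in Hif1aKI/+. Hif1a+/+ tumour 2 was lowest for Psmb10 too. Hif1a+/- tumour 2 was highest for Psmb9 and Psmb10, and for Psmb8 it and Hif1aKI/+ tumour 1 were equal to the second decimal.

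**Figure D1:**
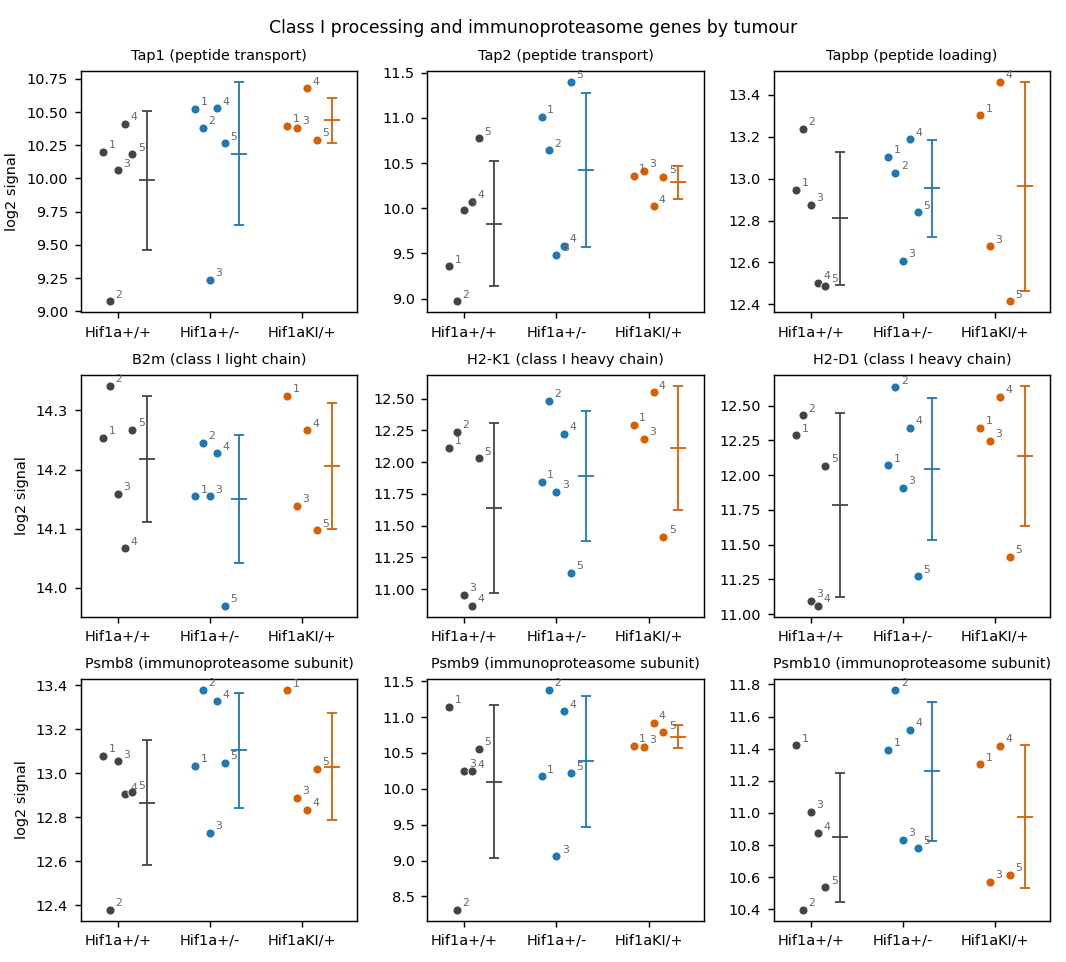
Deposited log2 signal of each member (y axis) by Hif1a genotype (x axis). Points are tumours with their replicate number, and the bar beside each group is its mean ± SD (n = 5, 5 and 4). The genotype groups overlap in all 9 panels, and Hif1a+/+ tumour 2 and Hif1a+/- tumour 3 lie at the bottom for Tap1, Psmb8 and Psmb9.

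The members ranked the tumours differently, here on the probe sets standing for the genes unless another is named. Hif1a+/+ tumour 2 was the lowest of 14 for Tap1, Tap2, Psmb8, Psmb9 and Psmb10 and at the same time the highest for B2m. Its heavy chains were the highest of its group, at 12.24 for H2-K1 and 12.43 for H2-D1. Hif1a+/- tumour 2 was highest for H2-D1, Psmb9 and Psmb10, and Hif1aKI/+ tumour 4 was highest for Tap1, Tapbp and H2-K1. On the probe sets standing for the genes, Hif1a+/+ tumour 4 was lowest for both heavy chains while its Tap1 was the highest of its genotype. The other H2-K1 probe sets were lowest in Hif1a+/- tumour 5, at 9.98 and 8.07. The H2-D1 probe set without the _x_at suffix was lowest in Hif1aKI/+ tumour 5, at 6.09.

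**Figure D2:**
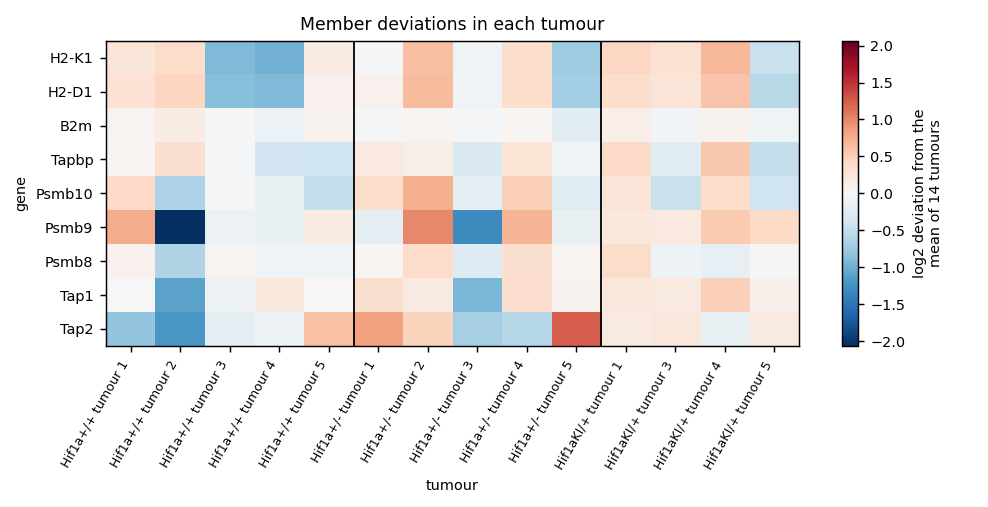
Deviation of each member (rows) from its own mean over the 14 tumours (log2, colour scale symmetric around 0) in each tumour (columns, grouped by genotype with black lines). The heavy chains are blue together in Hif1a+/+ tumours 3 and 4, Hif1a+/- tumour 5 and Hif1aKI/+ tumour 5, whereas Tap1 and Psmb9 are blue in Hif1a+/+ tumour 2 and Hif1a+/- tumour 3.

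No member passed the test between Hif1a+/- and Hif1a+/+ tumours. In limma fitted to all 10254 genes with Benjamini-Hochberg adjustment, 0 of 9 members passed an adjusted p of 0.05 and 0 of 9 an unadjusted p of 0.05. Over all genes the shares were 0.0195% and 7.94%. Group means were higher in Hif1a+/- for 8 members and lower for 1, against 46.2% of all genes higher. The members vary together, so these are not separate observations. The median difference was 0.25 on the log2 scale, against -0.00379 over all genes. The differences ran from -0.07 for B2m (95% interval -0.22 to 0.08) to 0.60 for Tap2 (-0.30 to 1.49). Psmb10 had the smallest p in limma (0.41, interval -0.16 to 0.98, adjusted p = 0.716). The Hif1a+/- and Hif1a+/+ values overlapped for all 9 members, where 1.47% of all genes did not overlap.

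Between Hif1aKI/+ and Hif1a+/+ tumours, limma called 0 of 9 members after adjustment and 0 of 9 before it, against 0% and 4.35% of all genes. Means were higher in Hif1aKI/+ for 8 members and lower for 1, against 47.7% of genes higher. The median difference was 0.35, against -0.00238 over all genes. Psmb9 had the widest difference, 0.62 (interval -0.58 to 1.83), followed by H2-K1 at 0.47 (-0.34 to 1.28), Tap2 at 0.46 (-0.50 to 1.41) and Tap1 at 0.45 (-0.21 to 1.11). The smallest adjusted p among the members in limma was 0.984. All 9 overlapped, where 1.76% of genes did not. This comparison and the one before it share the Hif1a+/+ tumours.

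Between Hif1a+/- and Hif1aKI/+ tumours, 3 members had the higher mean in Hif1a+/- and 6 the lower, with 46.9% of all genes higher. Again limma called 0 of 9 members with adjustment and 0 of 9 without, against 0% and 3.06% of genes. Differences ran from -0.34 for Psmb9 (interval -1.55 to 0.86) to 0.28 for Psmb10 (-0.33 to 0.89), and all 9 overlapped, against 0.673% of genes that did not. The F test over the 3 genotypes called 0 of 9 at an adjusted and 0 of 9 at an unadjusted p of 0.05 in limma, against 0% and 5.43% of genes, and its smallest member p was 0.315 for Psmb10. The intervals show what these numbers of tumours could resolve. For the signal of the probe set standing for B2m they exclude a difference above 0.22 in either direction. For Psmb9 they reach 1.83 in the comparison of Hif1aKI/+ with Hif1a+/+. The other B2m probe set ranged more widely across tumours, over 0.53 log2 units against 0.37.

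**Figure D3:**
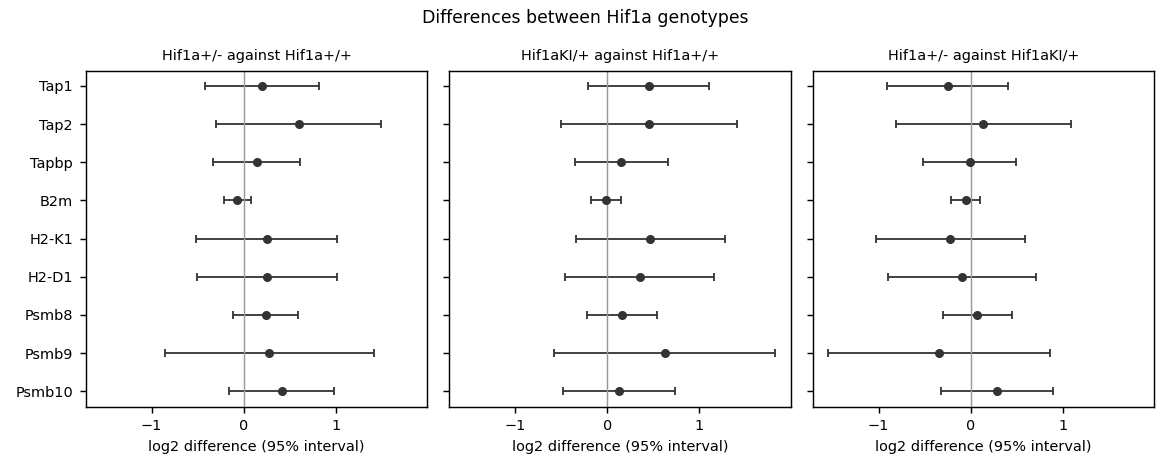
Difference in mean log2 signal (x axis) for each member (y axis) in the 3 genotype comparisons, with 95% intervals from limma. Every interval includes 0, and the B2m interval is the narrowest and the Psmb9 interval the widest.

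The immunoproteasome subunits were also set against the constitutive subunits whose places they take, as a log2 difference within each array. Psmb9 minus Psmb6 was -2.50 ± 0.93 (SD, n = 5) in Hif1a+/+, -2.71 ± 0.86 (n = 5) in Hif1a+/- and -2.05 ± 0.07 (n = 4) in Hif1aKI/+. The 4 Hif1aKI/+ values lay between -2.15 and -1.98, within the range of both other groups. Psmb8 minus Psmb5 was -0.07 ± 0.45, -0.09 ± 0.39 and -0.08 ± 0.13 in the same order, and Psmb10 minus Psmb7 was -1.56 ± 0.60, -1.29 ± 0.47 and -1.37 ± 0.37. Only shifts of these values between groups can be read, since probe sets differ in response. Over the 9 two-sided exact permutation tests, p ran from 0.167 to 0.968, all 0.968 after Benjamini-Hochberg adjustment. The smallest p belonged to Psmb9 minus Psmb6 between Hif1a+/- and Hif1aKI/+, a difference of -0.66.

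Across tumours the members did not move as a single block. Of the 36 pairs of members, 7 correlated past an adjusted p of 0.05 (Pearson r, 100000 permutations, Benjamini-Hochberg over 36), and 29 had a positive r. After subtracting each genotype's mean, 9 pairs passed and 24 were positive. By Spearman's rho, 4 and 5 pairs passed. The values below are from deviations from the genotype means over 14 tumours, and pairs that share a gene are not independent.

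The heavy chains and B2m formed the first set of close pairs. H2-K1 and H2-D1 correlated at r = 0.996 (rho = 0.982, permutation p = 1e-05, the smallest possible, adjusted 0.00036). B2m correlated with H2-K1 at r = 0.898 (rho = 0.859, permutation p = 2e-05, adjusted 0.00036) and with H2-D1 at r = 0.894 (rho = 0.868, permutation p = 8e-05, adjusted 0.00096). On the probe set standing for it, the H2-K1 deviations fell into 2 clusters, 4 low tumours between -0.77 and -0.69 and 10 between -0.12 and 0.60. The gap was 0.56, where the next widest was 0.15. The other H2-K1 probe sets did not show this gap. On them Hif1a+/- tumour 1, of the larger cluster, read 10.81 (group mean 11.25) and 9.01 (9.52). Hif1a+/+ tumour 3, of the low cluster, read 10.52 (group mean 11.11) and 8.71 (9.29). Within the larger cluster of 10 tumours, a division made after the values had been seen, r was 0.981 for H2-K1 with H2-D1 (permutation p = 1e-05, adjusted over 6 relations 6e-05). It was 0.652 for B2m with H2-K1 (rho = 0.661, permutation p = 0.0393, adjusted 0.0458) and 0.639 for B2m with H2-D1 (rho = 0.685, permutation p = 0.0458, adjusted 0.0458). B2m probe sets carry no _x_at suffix. Tapbp, the chaperone, correlated with B2m at r = 0.669 (rho = 0.670, permutation p = 0.00994, adjusted 0.0432 for r and 0.0627 for rho), and at 0.626 without its 2 farthest tumours.

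Tap1 and the immunoproteasome subunits formed the second set. Tap1 and Psmb9, whose start sites lie 225 bases apart in the sequence shown above, correlated at r = 0.850 (rho = 0.556, permutation p = 0.00148, adjusted 0.0107 for r and 0.150 for rho). Without Hif1a+/+ tumour 2 and Hif1a+/- tumour 3, r was 0.353, so the relation rests on these tumours. Psmb8 and Psmb9 correlated at r = 0.822 (rho = 0.701, permutation p = 0.00035, adjusted 0.00315 for r and 0.0482 for rho), and r was 0.524 without the same 2 tumours. Psmb9 and Psmb10 correlated at r = 0.672 (rho = 0.780, permutation p = 0.00454, adjusted 0.0272 for r and 0.0149 for rho) and kept r = 0.588 without them. Psmb8 and Psmb10 correlated at r = 0.659 (rho = 0.662, permutation p = 0.0108, adjusted 0.0432 for r and 0.0627 for rho), with r = 0.525 without them. Tap1 and Psmb8 correlated at r = 0.691 (rho = 0.358, permutation p = 0.00656, adjusted 0.0337 for r and 0.357 for rho), and r was 0.00646 without the same tumours, so this pair rested on them as well.

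Between the sets, r was small on the probe sets standing for the genes. Those of both heavy chains carry the _x_at suffix. The H2-D1 probe set without this suffix was not tested against Tap1 or the immunoproteasome genes, so these values do not speak for it. H2-K1 correlated with Tap1 at r = -0.10 (permutation p = 0.765), with Psmb8 at -0.02 (permutation p = 0.954) and with Psmb9 at 0.10 (permutation p = 0.753), and for H2-D1 the values were -0.10, -0.03 and 0.07. Tap2 had negative r with H2-K1 (-0.38, permutation p = 0.178), H2-D1 (-0.40, permutation p = 0.161) and B2m (-0.46, permutation p = 0.0963), none of which passed. Its r with its transporter partner Tap1 was 0.53 (rho = 0.37, permutation p = 0.0492, adjusted 0.127) and -0.13 without the 2 farthest tumours. Psmb10, which lies on chromosome 8 whereas 7 members lie on chromosome 17, stood between the sets, with r from 0.38 to 0.67 to every member other than Tap2. As a description of these arrays, the median r of a member with the other genes above the boundary lay between -0.05 and 0.03, and the 95th percentile between 0.48 and 0.59.

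**Figure D4:**
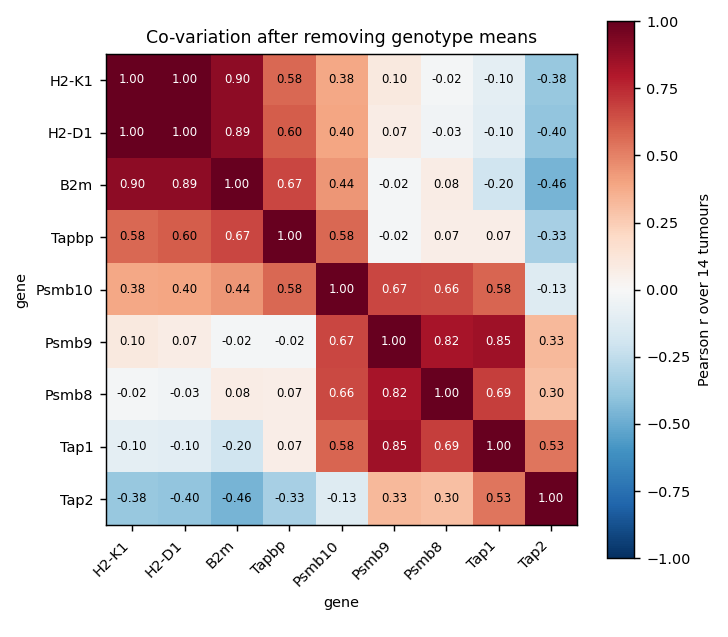
Pearson r between members (rows and columns) over the 14 tumours after subtracting genotype means, with the value in each cell and the colour scale from -1 to 1. H2-K1, H2-D1 and B2m correlate at 0.89 or above and Psmb9, Psmb8 and Tap1 at 0.69 to 0.85. Cells that join these sets lie between -0.20 and 0.10. Each gene is read through the probe set standing for it, which carries the _x_at suffix for both heavy chains.

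Probe sets of the same gene agreed in their deviations. Both B2m probe sets correlated at r = 0.928 (rho = 0.912, permutation p = 1e-05). The 3 pairs of H2-K1 probe sets lay between 0.888 and 0.989, and the 10 pairs of H2-D1 probe sets between 0.731 and 0.993. The H2-D1 probe set without the _x_at suffix correlated with the one standing for the gene at r = 0.764 (rho = 0.767, permutation p = 0.00102, adjusted over 10 pairs 0.00146).

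The heavy chains and B2m moved with interferon-induced genes across tumours, and the immunoproteasome genes were not shown to. A list of 25 measured interferon-induced genes outside antigen presentation, such as Irf7, Rtp4 and Ifit3, was averaged in each tumour. Its relations with the 9 members were 9 of 90, the others being with 9 cell type lists, and all were computed after the data had been seen. The list mean averaged 7.01 in Hif1a+/+ tumours (highest 7.69), 7.78 in Hif1a+/- (highest 8.39) and 7.68 in Hif1aKI/+ (highest 8.54). The deviations of H2-K1 correlated with it at r = 0.941 (rho = 0.938, permutation p = 1e-05, adjusted 0.0003), those of H2-D1 at 0.942 (rho = 0.943, permutation p = 1e-05, adjusted 0.0003) and those of B2m at 0.924 (rho = 0.886, permutation p = 1e-05, adjusted 0.0003). Leaving out the 2 farthest tumours gave 0.910, 0.916 and 0.876. Within the cluster of 10 tumours, r was 0.792 for H2-K1 (permutation p = 0.00498, adjusted 0.0113), 0.795 for H2-D1 (permutation p = 0.00564, adjusted 0.0113) and 0.767 for B2m (permutation p = 0.00954, adjusted 0.0143). For B2m it was 0.451 once the 2 farthest of the 10 were left out, so that value rests on them.

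Tapbp correlated with the same list at r = 0.692 (rho = 0.705, permutation p = 0.00773, adjusted 0.120). Psmb10 had r = 0.526 (rho = 0.525, permutation p = 0.0549, adjusted 0.263). Without their 2 farthest tumours, r was 0.573 for Tapbp and 0.636 for Psmb10, so Psmb10 lay nearer to Tapbp than to Psmb8 and Psmb9. For Psmb9 r was 0.0852 (rho = 0.310, permutation p = 0.776), for Psmb8 -0.0141 (permutation p = 0.961), for Tap1 -0.0626 (permutation p = 0.834) and for Tap2 -0.445 (permutation p = 0.112). Without Hif1a+/+ tumour 2 and Hif1a+/- tumour 3, r with the list was 0.571 for Psmb9, 0.328 for Tap1, 0.252 for Psmb8 and -0.439 for Tap2. The difference between r of the heavy chains and r of the immunoproteasome genes was not itself tested.

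**Figure D5:**
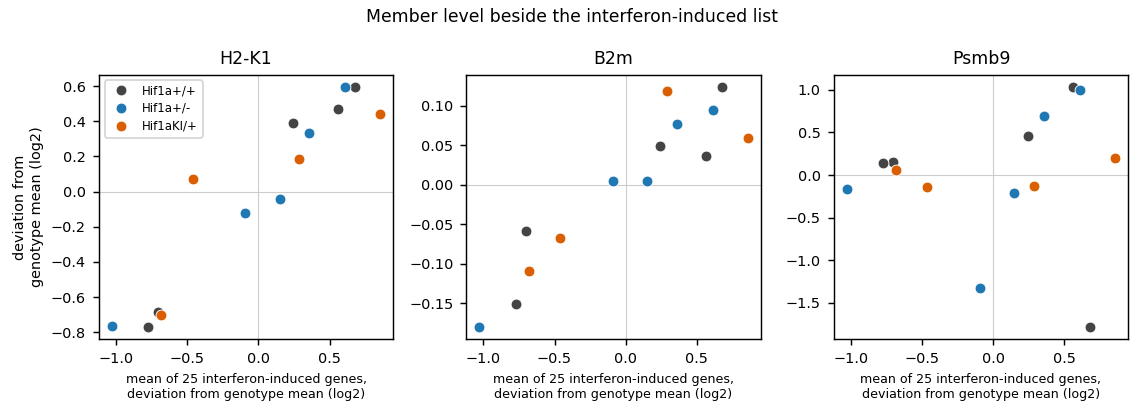
Deviation of H2-K1, B2m and Psmb9 from their genotype means (y axis, log2) against that of the mean of 25 interferon-induced genes (x axis, log2), 1 point per tumour coloured by genotype. Over all tumours r is 0.941 for H2-K1 and 0.924 for B2m. In the H2-K1 panel 4 low tumours are set apart, on the probe set standing for the gene. In the Psmb9 panel Hif1a+/+ tumour 2 is at the bottom right.

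Cell type lists moved less closely with the members. No relation with them passed by Pearson's r, and 2 passed by rho alone, B cell markers with B2m (rho = 0.789, permutation p = 0.00125, adjusted 0.0281, r = 0.645) and with H2-K1 (rho = 0.754, permutation p = 0.00256, adjusted 0.0461, r = 0.649). The summed level of the 7 measured B cell markers, as their mean, ran from 4.97 to 6.21 in Hif1a+/+ tumours, 5.07 to 7.31 in Hif1a+/- and 5.67 to 7.19 in Hif1aKI/+, and Fcer2a was below the boundary in all 14. MHC class II and dendritic cell markers had r = 0.630 with B2m, 0.659 with H2-K1 and 0.668 with H2-D1, with adjusted permutation p of 0.120 to 0.122. T lineage markers had r = 0.656 with Tap2 (permutation p = 0.0107, adjusted 0.120). The part of these cells in the members' levels was not tested.

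The wider pathway was read through lists of companion genes, and limma called none of them in any genotype comparison after adjustment. Of 11 measured genes of peptide loading and trimming, 1 had a higher mean in Hif1a+/- than in Hif1a+/+ and 10 a lower one, with a median of -0.14, where 46.2% of all genes were higher. At an unadjusted p of 0.05 the list had 1 gene of 11, near the 7.94% of all genes. That gene was Calr, the calreticulin chaperone of the loading complex, at -0.20 (interval -0.39 to -0.02, adjusted p = 0.593). In Hif1aKI/+ against Hif1a+/+ all 11 had the lower mean, with a median of -0.15. The trimming enzyme Erap1 differed by -0.06 and -0.0014 in these comparisons. Of the 10 other class I heavy chain genes measured, 4 were higher and 6 lower in both comparisons. H2-M3, which presents formylated peptides, differed by 0.72 in Hif1aKI/+ against Hif1a+/+ (interval 0.05 to 1.39, adjusted p = 0.984). Its values there were 7.91, 7.84, 9.13 and 7.98, and tumour 4 was the high one. H2-M3 was the 1 gene of these 10 at an unadjusted p of 0.05, against 4.35% of all genes. H2-Q2 had the lower mean in the same comparison, by -1.75 (interval -4.30 to 0.81, adjusted p = 0.984). Its Hif1aKI/+ values were 5.22, 7.87, 2.17 and 7.77, and tumour 4 was below the background boundary. In Hif1a+/+ tumours H2-Q2 ran from 5.63 to 9.45.

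The 3 constitutive catalytic subunits all had higher means in Hif1a+/- than in Hif1a+/+, where 46.2% of all genes were higher. Psmb6 differed by 0.50 (interval 0.21 to 0.79, unadjusted p = 0.00271 and adjusted p = 0.460 in limma), with 12.59, 12.32, 12.57, 12.53 and 12.97 in Hif1a+/+ and 12.96, 13.43, 13.01, 12.84 and 13.23 in Hif1a+/-. Only Hif1a+/+ tumour 5 reached the Hif1a+/- range. Psmb6 was the 1 gene of these 3 at an unadjusted p of 0.05, against 7.94% of all genes. Psmb5 differed by 0.26 (interval -0.10 to 0.62) and Psmb7 by 0.14 (-0.18 to 0.45). Of 11 other core subunits 5 were higher and 6 lower, and of 17 subunits of the 19S regulatory particle 8 were higher and 9 lower. Psme1, a subunit of the interferon-inducible activator, differed by 0.14 (interval -0.20 to 0.48). In Hif1aKI/+ against Hif1a+/+, 2 constitutive catalytic subunits were higher and 1 lower, where 47.7% of all genes were higher. There 2 of the other core subunits were higher and 9 lower, and 3 of the 19S subunits were higher and 14 lower. Psme2, Nlrc5 and Psmb11 were not analysed here.

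Of 22 measured regulators of class I genes, 13 were higher and 9 lower in Hif1a+/- than in Hif1a+/+, where 46.2% of all genes were higher. At an unadjusted p of 0.05 there were 2 of 22, near the 7.94% of all genes. These were Irf1, an activator of Tap1 and Psmb9, at 0.81 (interval 0.15 to 1.48, adjusted p = 0.540), and Irf9, part of the complex that type I interferon activates, at 1.30 (0.24 to 2.37, adjusted p = 0.540). Irf1 ran from 9.74 to 10.31 in Hif1a+/+ and from 10.57 to 11.21 in Hif1a+/-. These groups did not overlap, and neither did those of 1.47% of all genes. In Hif1aKI/+ it read 11.08, 9.47, 11.38 and 10.32. Of 10 interferon receptors and proximal signalling genes, 7 had the higher mean in Hif1a+/- and 3 in Hif1a+/+. Before adjustment 4 of them had a p under 0.05, of which 3 were higher, against 7.94% of all genes. Ifngr1, the ligand-binding chain of the interferon gamma receptor, differed by 1.78 (interval 0.68 to 2.88, adjusted p = 0.474). Socs3, a feedback inhibitor of cytokine signalling, differed by -1.68 (interval -2.89 to -0.47, adjusted p = 0.514). Of the 25 interferon-induced genes, 23 were higher in Hif1a+/- and 21 in Hif1aKI/+ than in Hif1a+/+, with medians of 0.48 and 0.71, where 46.2% and 47.7% of all genes were higher. At an unadjusted p of 0.05 there were 5 and 2 of the 25, against 7.94% and 4.35% of all genes. These genes vary together, and both comparisons share the Hif1a+/+ tumours. Cell type lists also differed in these comparisons, with medians of 1.02 and 1.55 for thymic epithelial markers. Medians were 0.55 and 0.64 for MHC class II and dendritic cell markers, and -0.24 and 0.01 for macrophage and monocyte markers. Fibroblast and matrix markers had -1.32 and -0.75, adipocyte markers -1.44 and -1.31, and endothelial markers -0.55 and -0.19. T lineage markers had 0.15 and 0.19, B cell markers -0.0027 and 0.19, and NK and cytotoxic lymphocyte markers 0.24 and -0.0044. Their part in the interferon values was not tested.

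The genes whose deviations were most like those of the members, by the median r over the 9 members across 14 tumours, were Parp12 (0.64), Isg20 (0.64), Icos (0.60), St6gal1 (0.59), Ifih1 (0.58), Ppm1d (0.58), Elavl3 (0.57), Canx (0.56), Angel1 (0.56) and Appbp2 (0.56). Parp12, Isg20 and Ifih1 are known interferon-induced genes, and Canx encodes calnexin, the chaperone of newly made heavy chains. Any gene has as many members above its median r as below it, so an even split of the members follows from this ranking. As a description, each of the 10 had a higher r with H2-K1, H2-D1, B2m, Tapbp and Psmb10 than with the other 4 members. That r was -0.59 to -0.28 with Tap2, -0.10 to 0.31 with Tap1, -0.02 to 0.40 with Psmb8 and -0.03 to 0.33 with Psmb9, below the 95th percentile over all genes compared for each of these members. Taken member by member, which was added after the data had been seen, the nearest gene to H2-D1 was Rtp4 (r = 0.932), also nearest to H2-K1 (0.925), and the nearest to B2m was Ifit3 (0.914). Both belong to the interferon-induced list. The nearest gene to Tap1 was Stk19 (0.931), a gene on chromosome 17 like Tap1, and Trim30a was nearest to Tapbp (0.924). Of the 22 different genes in the 3 nearest places of each member, 4 lay on chromosome 17 (Stk19, Aif1, Gpank1 and Rps28), which holds 7 of the 9 members and 4.85% of the genes measured.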

How the data were processed

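Total RNA from 14 tumours was labelled with biotin and measured on 1 expression array per tumour. The authors deposited log2 values, 1 per probe set and array, made with GCRMA, and Partek is also named, per the submitters' processing notes. Versions, settings and scan batches are not given in the sources used here. GCRMA adjusts background by probe sequence, so low values form a narrow mode and differences near it are compressed. No scanner intensities were used. Of 18264 probe sets, 16602 name 1 gene, 603 several and 1059 none, and 16583 matched RefSeq by Entrez identifier. The probe set of highest mean stood for each gene. Of the probe sets naming members, 2 that also name other genes were left out.

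limma 3.58.1 (lmFit, eBayes, R 4.3.3) was fitted to all 14 arrays with a mean per genotype and Benjamini-Hochberg adjustment over 10254 genes, at a threshold of 0.05, and was tested on simulated data. Permutation tests were exact, over all assignments, where groups were compared. Those for correlations drew 100000 resamples with NumPy 2.4.6, and ranks for rho came from SciPy 1.17.1. Residuals from genotype means were permuted as if exchangeable. The number of arrays limits the precision. Whether replicate numbers pair tumours was checked: deviations of same-numbered tumours correlated at -0.00604 on average over 13 pairs, so no block was used. Named genes were the members, Hif1a, a fixed set of companion genes, the 3 genes of smallest F test p in each companion list, and the 10 genes most like the members. The members and lists were chosen with earlier results of these data known. Alternatives covered the filter, normalization, centring, probe set choice, moderation, array weights, samples in the fit, the replicate block and leaving out each array.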

Additional observations from a re-analysis of the deposited data

Results flagged for a closer look

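Within genotypes, some single tumours lay far from the rest of their group by Dixon's gap test at the 95% level, which chance alone flags in about 1 of 20 groups. Among the members and their probe sets, 5 of 57 groups were flagged. Some probe sets enter the 57 both as a member and as a probe set, so fewer groups are distinct. Tap1 was low at 9.08 in Hif1a+/+ tumour 2 (others 10.06 to 10.41) and at 9.24 in Hif1a+/- tumour 3 (others 10.27 to 10.53). Psmb8 was low at 12.38 in Hif1a+/+ tumour 2 (others 12.91 to 13.08). Tap2 was low at 10.02 in Hif1aKI/+ tumour 4, where the others lay between 10.35 and 10.41. An H2-D1 probe set with the _x_at suffix, 1 of those not standing for the gene, was high at 5.86 in the same tumour (others 5.11 to 5.19).

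Among the companion genes, 11 of 90 groups were flagged. In Hif1aKI/+ tumour 4, H2-M3 was high at 9.13 and Stat2 at 4.46, the latter below the background boundary and 0.04 from the nearest value on the log2 scale. In Hif1aKI/+ tumour 5, Erap1 was high at 9.70 and Psmc2 at 13.64. Psmc2 was low at 13.15 in Hif1a+/+ tumour 2. In Hif1a+/+ tumour 5, Psma7 was high at 13.16 and Mx2 at 3.28, the latter below the boundary. Among Hif1a+/- tumours, Sec61a1 was high at 13.31 in tumour 1, Psme3 was low at 11.33 in tumour 2, Socs3 was high at 10.75 in tumour 3 and Jak1 was low at 11.90 in tumour 4.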

How the results depend on the processing

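In every setting run, 0 of 9 members passed in any genotype comparison or in the F test. Over all genes, 2 passed between Hif1a+/- and Hif1a+/+. That count was 0 with the filter on low values, quantile normalization, centring on array medians, trend or robust moderation, the replicate block, only the 2 groups compared, or all probe sets tested singly, and 0 to 1 when an array was left out. In Hif1aKI/+ against Hif1a+/+ the count of 0 became 0 to 2 with an array left out (2 without Hif1aKI/+ tumour 5), and in Hif1a+/- against Hif1aKI/+ 0 to 1. The cause was not tested. The replicate block moved no member call.

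Reversed signs were all of differences that did not pass. B2m in Hif1aKI/+ against Hif1a+/+ was 0.011 with quantile normalization, 0.012 with the mean of its probe sets, 0.00203 with array weights, 0.016 with the replicate block, 0.034 with its other probe set, and -0.050 to 0.026 with an array left out. Psmb10 there was -0.015 with array weights and -0.017 to 0.27 with an array left out, and Tapbp was -0.00082 with its low probe set and -0.013 to 0.34. In Hif1a+/- against Hif1aKI/+, Tapbp was 0.092 with array weights, 0.0046 with its low probe set and -0.19 to 0.16 with an array left out. H2-D1 was 0.030 with array weights, 0.30 with the probe set without the _x_at suffix and -0.34 to 0.10, and Tap2 was -0.11 to 0.37. In Hif1a+/- against Hif1a+/+, Tap1 was -0.026 to 0.44 and Psmb9 -0.17 to 0.61, both below 0 only without Hif1a+/+ tumour 2. The subunit differences, none of which passed, ran with an array left out from -0.13 to 0.12 for Psmb8 minus Psmb5 in Hif1a+/- against Hif1a+/+, -0.12 to 0.12 in Hif1aKI/+ against Hif1a+/+ and -0.12 to 0.13 in Hif1a+/- against Hif1aKI/+. Psmb9 minus Psmb6 ran from -0.60 to 0.090 in Hif1a+/- against Hif1a+/+. Psmb10 minus Psmb7 ran from -0.0054 to 0.36 in Hif1aKI/+ against Hif1a+/+ and -0.052 to 0.27 in Hif1a+/- against Hif1aKI/+.

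Hif1a in Hif1a+/- against Hif1a+/+ was 0.012 with the mean of its probe sets. In Hif1a+/- against Hif1aKI/+ it was 0.44 to 0.61 with an array left out, and 6 of these exact permutation tests missed the threshold (p up to 0.0571). Among member pairs, 7 passed with all tumours, 4 to 11 with an array left out (4 without Hif1a+/+ tumour 2, 11 without Hif1a+/+ tumour 5) and 2 within the larger cluster of 10 tumours by H2-K1, a setting chosen after seeing the data, where fewer tumours were tested.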
